A study of Mus musculus with 40 samples.

Results

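Flt3 and Kit encode receptor tyrosine kinases of blood stem and progenitor cells, and the chromatin marks H3K27ac and H3K4me1 at these loci were described in mouse progenitors of 6 genotypes. A peak belonged to a locus if it overlapped the gene body or if its nearest protein-coding start site was that of Flt3 or Kit, within 100 kb (mouse genome build mm10). Of 773134 peaks in 12 lists, 494 met this rule, 264 at Flt3 and 230 at Kit. Overlapping peaks of the 6 lists of a mark were merged into regions, which gave 27 H3K27ac and 31 H3K4me1 regions at Flt3 and 29 H3K27ac and 51 H3K4me1 regions at Kit, or 138 of 71518 H3K27ac and 181776 H3K4me1 regions in all.

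The study used ChIPmentation, a chromatin immunoprecipitation in which the transposase Tn5 tags the captured chromatin, on sorted haematopoietic stem and progenitor cells of mice aged 21 days. The labels name 5 mutant genotypes, Flt3-ITD, NUP98-HOXD13, Runx1-het, Flt3-ITD/NUP98-HOXD13 as well as Flt3-ITD/Runx1-het, and wild type as their reference. Of 40 samples, 39 carried a mark, in 9 groups of 3 and 3 groups of 4, and 1 was an input, not analysed here. The authors deposited 1 pooled list per genotype and mark, so no list had a replicate and no genotype was tested against another. Each list pools many cells, and more marked cells and more mark per cell cannot be told apart. Flt3-ITD is an internal tandem duplication in the receptor that leaves its kinase active without ligand, and NUP98-HOXD13 fuses a nuclear pore protein to a homeodomain factor. Runx1-het goes with source names that combine Runxf and Vav. The labels do not state which alleles these are or whether the Flt3-ITD allele lies in the mouse Flt3 gene itself.

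FLT3 and KIT are class III receptor tyrosine kinases, which dimerise when they bind their ligands, FLT3 ligand and stem cell factor, and signal through RAS, PI3K and STAT5. KIT marks haematopoietic stem cells, early progenitors and mast cells, and FLT3 marks multipotent and lymphoid-primed progenitors and dendritic cell precursors. H3K4me1 lies on enhancers whether or not they are in use, and H3K27ac lies on promoters and enhancers in use.

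The lists held 31978 to 43363 H3K27ac peaks and 72682 to 117039 H3K4me1 peaks, with no read depth given. Median H3K27ac peak widths were 769, 592, 768, 888 and 586 bp in the Flt3-ITD, NUP98-HOXD13, Runx1-het, Flt3-ITD/NUP98-HOXD13 as well as Flt3-ITD/Runx1-het lists and 389 bp in wild type. The sorted cell type was checked against marker genes, counting an H3K27ac peak within 1 kb of a start site. Of 12 stem and progenitor markers, 8 of which are also in the list of transcription factors below, 10 to 12 had such a peak in each list, against 1 to 4 of 12 markers of committed lineages and 0 of 6 genes not used in blood. Committed markers with none in any list included Cd3e, Cd3g, Cd8a, Ms4a1, Itgam, Ly6g and Mcpt4. Promoter peaks at the Y-linked genes Ddx3y and Uty occurred in the Runx1-het and Flt3-ITD/Runx1-het lists and in no other, so sex and Runx1 genotype cannot be told apart where these lists are compared with wild type.

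The promoters are shown because they lie in the H3K27ac regions that were found in every list at both loci, and because the lists differed in how much of the Kit window they covered. Each sequence runs from 250 bases before to 50 bases after the RefSeq start site (build GRCm38.p6), chr5:147400440-147400739 on the minus strand for Flt3 and chr5:75574737-75575036 on the plus strand for Kit. Capitals mark matches to 7 motifs of blood transcription factors, searched on both strands.
Flt3: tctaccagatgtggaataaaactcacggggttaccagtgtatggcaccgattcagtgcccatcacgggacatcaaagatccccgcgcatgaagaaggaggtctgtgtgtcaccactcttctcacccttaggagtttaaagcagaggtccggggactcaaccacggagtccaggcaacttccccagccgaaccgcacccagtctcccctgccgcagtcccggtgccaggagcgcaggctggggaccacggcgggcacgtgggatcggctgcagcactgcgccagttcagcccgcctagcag
Kit: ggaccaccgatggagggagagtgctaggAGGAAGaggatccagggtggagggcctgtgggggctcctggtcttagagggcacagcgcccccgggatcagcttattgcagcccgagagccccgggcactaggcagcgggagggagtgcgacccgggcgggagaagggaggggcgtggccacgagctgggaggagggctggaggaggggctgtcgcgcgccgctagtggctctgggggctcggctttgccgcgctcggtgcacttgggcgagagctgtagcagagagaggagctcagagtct
The Kit window held 1 match, the ETS letters AGGAAG at position -222 from the start site, and the Flt3 window held none. Of 27025 mouse promoter windows of this length, 35.1% held these ETS letters. The RUNX letters TGTGGT stood in 16.9% of the windows, and the GATA letters AGATAA stood in 11.4%. The STAT letters TTCNNNGAA were in 8.47%, and the HOX with MEIS letters TGATTNAT in 3.36%. The MYB letters CAACTG were in 13.6%, and the E-box letters CAGCTG in 16.1%. The windows were rich in G and C, 61.0% at Flt3 and 69.0% at Kit, against a median of 52.7% over all windows. The Flt3 window held 18 CpG sites and the Kit window 20.

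Flt3 (ENSMUSG00000042817.15, chr5:147330741-147400489, minus strand, 24 exons over 69.7 kb) carried a broad, strong H3K27ac pattern in all 6 genotypes. Its H3K27ac peaks covered 29.2 kb in the Flt3-ITD list, 27.6 kb for NUP98-HOXD13, 31.3 kb for Runx1-het, 39.4 kb for Flt3-ITD/NUP98-HOXD13 and 29.1 kb for Flt3-ITD/Runx1-het, against 26.5 kb in wild type. Every list covered more of Flt3 than of at least 99.7% of 21866 protein-coding genes. Per 10000 bases covered by the whole list, the order differed, with Flt3 holding 7.0, 7.93, 8.71, 8.83 and 7.29 in these mutant lists and 9.47 in wild type.

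**Figure D1:**
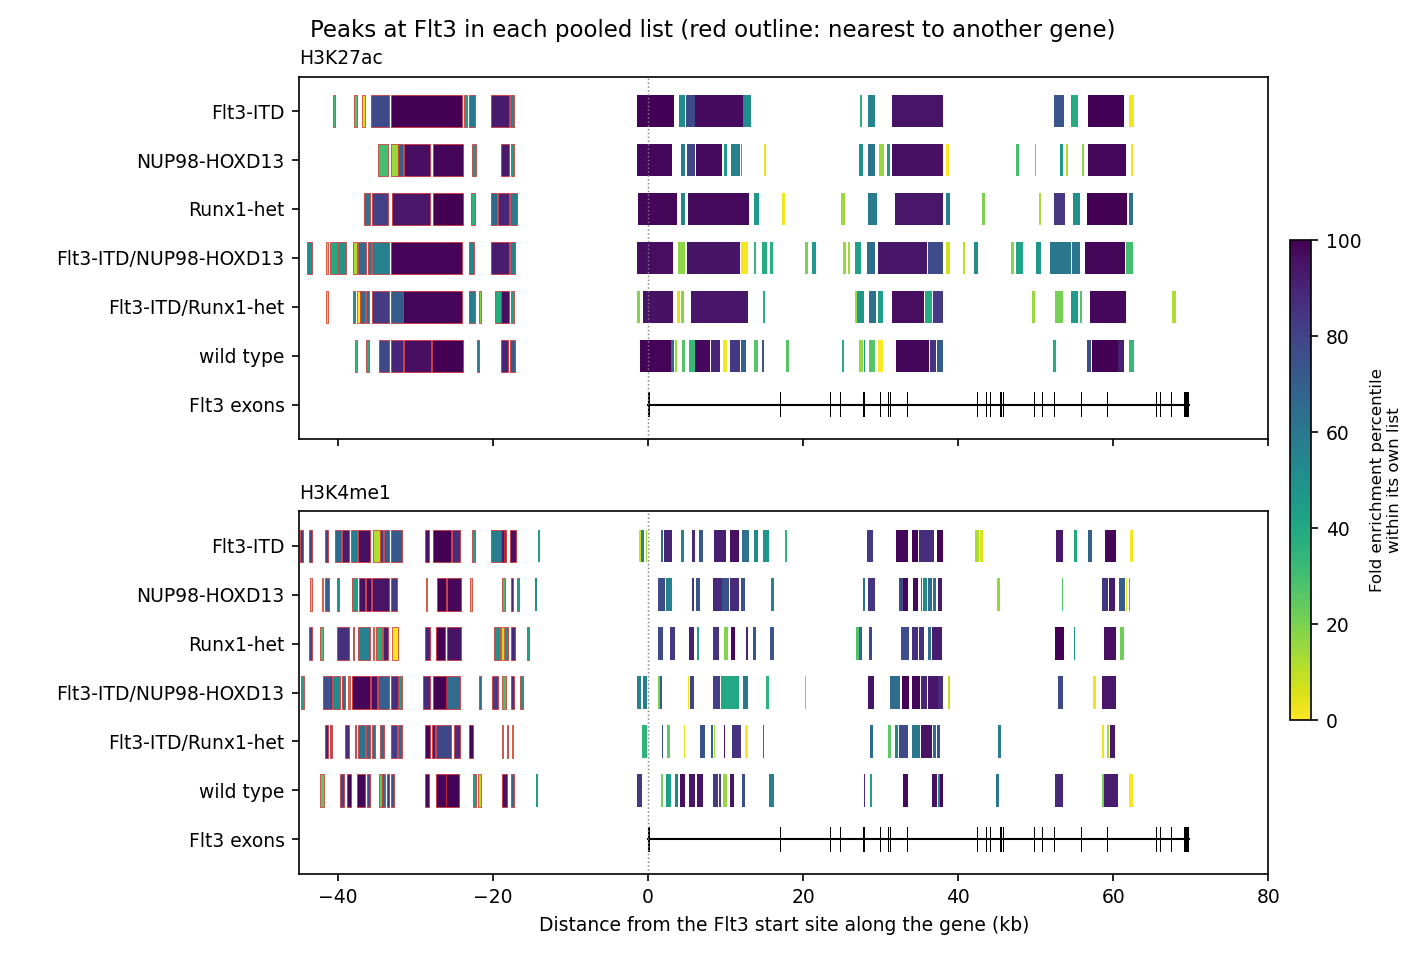
Peaks of the 6 pooled lists around Flt3 by distance from its start site along the gene (kb), H3K27ac above and H3K4me1 below, each bar 1 peak coloured by the percentile of its fold enrichment within its own list; peaks outlined in red lie nearest to another gene, Pan3. Dark H3K27ac blocks stand at the start site, in intron 1, around introns 5 to 9 and around exon 20 in every list. Mostly paler bars stand between them, some in all 6 lists and others in 1 list only.

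All 6 lists shared 6 Flt3 regions, 22.2% of its 27, against 19.3% of all H3K27ac regions. Of these, 4 were broad and strong, and they are given by the fold enrichment over control that the authors' peak caller assigned, a value that describes peaks within a list and sets no order between lists. At the promoter, chr5:147395680-147401937 (exon 1 and intron 1), the highest fold enrichment was 38.4 for Flt3-ITD, 21.0 for NUP98-HOXD13, 31.3 for Runx1-het, 25 for Flt3-ITD/NUP98-HOXD13 and 17.8 for Flt3-ITD/Runx1-het, and 23.5 in wild type. The promoter peak stood between the 95.7 and 99.4 percentile of its own list in all 6 lists, and the strongest summits lay 0.4 to 0.8 kb inside the gene. The 300-base window printed above was covered in full by H3K27ac peaks in every list.

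Inside the gene, intron 1 held a region of 8.40 kb, chr5:147387160-147395563, with fold enrichments of 23.5, 20.2, 24.1, 21.4 and 15.6 in the Flt3-ITD, NUP98-HOXD13, Runx1-het, Flt3-ITD/NUP98-HOXD13 as well as Flt3-ITD/Runx1-het lists, and 17.2 in wild type. Its strongest summits lay within 485 bp of each other, 7.0 to 7.5 kb from the start site. A region of 8.45 kb over exons 6 to 9, chr5:147362447-147370894, had fold enrichments of 18.8, 17.1, 17.2, 19.8 and 19.4 in the same mutant order and 20.2 in wild type. The strongest peak of the locus in all 6 lists was further in, around exon 20, at chr5:147337783-147344074, with 41.8, 23.6, 45.6, 33.4 and 23.5 in the mutant lists and 29.4 in wild type. It ranked 148, 566, 87, 456 and 864 by fold enrichment within the mutant lists and 143 within the wild-type list. Summits of this region lay 59.0 to 59.6 kb from the start site, near the 3′ end of the gene.

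The other 2 regions shared by all lists were weaker. Around exon 18, chr5:147344827-147348645 had fold enrichments of 6.89, 4.03, 9.91, 5.41 and 4.19 in the mutant lists and 4.01 in wild type, at percentiles from 38.8 to 84.0. Peaks covered 3734 of its 3819 bp in Flt3-ITD/NUP98-HOXD13, 2215 for Flt3-ITD, 2223 for Runx1-het, 1855 for Flt3-ITD/Runx1-het and 753 for NUP98-HOXD13, against 463 in wild type. In intron 5, chr5:147371013-147372241 had 4.73, 4.88, 5.50, 5.87 and 5.13 in the mutants and 3.68 in wild type.

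Upstream of Flt3, stronger peaks belonged to the neighbouring gene by the rule. At -28.5 kb, near the start site of Pan3, which encodes a subunit of an mRNA deadenylase, chr5:147424411-147433659 had fold enrichments of 66.7, 24.0, 68.4, 36.9 and 25.6 in the mutant lists and 48.9 in wild type. It was held by all 6 lists and was not counted among the Flt3 regions.

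Beyond the shared regions the Flt3 locus differed between lists through small peaks. A single list held 13 of the 27 H3K27ac regions (48.1%, against 52.6% of all H3K27ac regions). Only wild type held 2 of these, in intron 2 and over exon 5, with fold enrichments of 3.68 and 4.34 (7.41%, against 14.0% of all regions). The region over exon 5, chr5:147372444-147372694, ended directly before chr5:147372696-147373833, which 5 lists held, wild type included. It would not stand alone with peaks merged up to 500 bp apart. The 2 NUP98-HOXD13 lists shared 1 region that no other list held, chr5:147352110-147353014 in intron 15, with 4.17 for Flt3-ITD/NUP98-HOXD13 and 3.51 for NUP98-HOXD13 and summits 32 bp apart (3.70%, against 1.39%). No Flt3 H3K27ac region was held by all 5 mutants and not wild type (background 1.58%), by the 3 Flt3-ITD lists alone (0.702%) or by the 2 Runx1-het lists alone (0.573%).

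Set against wild type, the Flt3-ITD/NUP98-HOXD13 list held the most additional Flt3 H3K27ac regions. This list also covered the most bases in total, 44.6 Mb against 28.0 Mb in wild type. Regions held were 7 of 27 for Flt3-ITD, 12 for NUP98-HOXD13, 12 for Runx1-het, 20 for Flt3-ITD/NUP98-HOXD13 and 11 for Flt3-ITD/Runx1-het, against 12 in wild type. A gained region is one that the mutant list held and its reference lacked, and a lost region is one that only the reference held. Flt3-ITD/NUP98-HOXD13 gained 10 and lost 2 of the 22 Flt3 regions held by either list, 45.5% and 9.09%, beside 26.9% gained and 31.7% lost over all regions. Against NUP98-HOXD13 it gained 9 and lost 1 of 21, 42.9% and 4.76%, beside 24.8% and 18.9%. Gained regions made up 83.3% of the changed ones in the first comparison (95% Wilson interval 55.2 to 95.3, counting error only) and 90.0% in the second (59.6 to 98.2), beside 45.9% and 56.8% over all regions. These gained regions were weak, at a median percentile of 28.1 and 20.1 of the Flt3-ITD/NUP98-HOXD13 list and at most 51.2, and with changes limited to peaks at or above the list's median fold enrichment 1 of 2 and 1 of 1 changed regions were gained. The comparisons share the Flt3-ITD/NUP98-HOXD13 list, and regions of 1 locus are not independent, so the intervals are too narrow. All comparisons with wild type share 1 wild-type list.

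In the other mutant lists as deposited, gained regions did not outnumber lost ones at Flt3, but this turned under other settings. Flt3-ITD gained 0 and lost 5 of 12 H3K27ac regions, beside 27.6% gained and 30.4% lost over all regions, and the 5 lost regions stood at a median percentile of 38.8 of the wild-type list. The strongest of them, chr5:147385193-147385843 in intron 1, had a wild-type fold enrichment of 5.99, at the 74.8 percentile. With all lists shortened to 31978 peaks, 3 of 6 changed regions were gained in Flt3-ITD, and with peaks of −log10 q of at least 5 it was 3 of 4. NUP98-HOXD13 gained 4 and lost 4 of 16 (background 24.4% and 34.5%), and Runx1-het gained 4 and lost 4 of 16 (background 23.7% and 36.0%). At −log10 q of at least 5, 6 of 7 changed regions were gained in Runx1-het, 85.7%, and 7 of 9 with lists of equal length, 77.8%. Lists of equal length gave 6 of 9 in NUP98-HOXD13 and 3 of 5 in Flt3-ITD/Runx1-het, both against wild type. Merging peaks up to 500 bp apart left 2 changed regions in Runx1-het, both gained. Flt3-ITD/Runx1-het gained 3 and lost 4 of 15 against wild type (background 33.1% and 28.5%) and gained 5 and lost 6 of 17 against Runx1-het (background 37.6% and 20.5%).

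**Figure D2:**
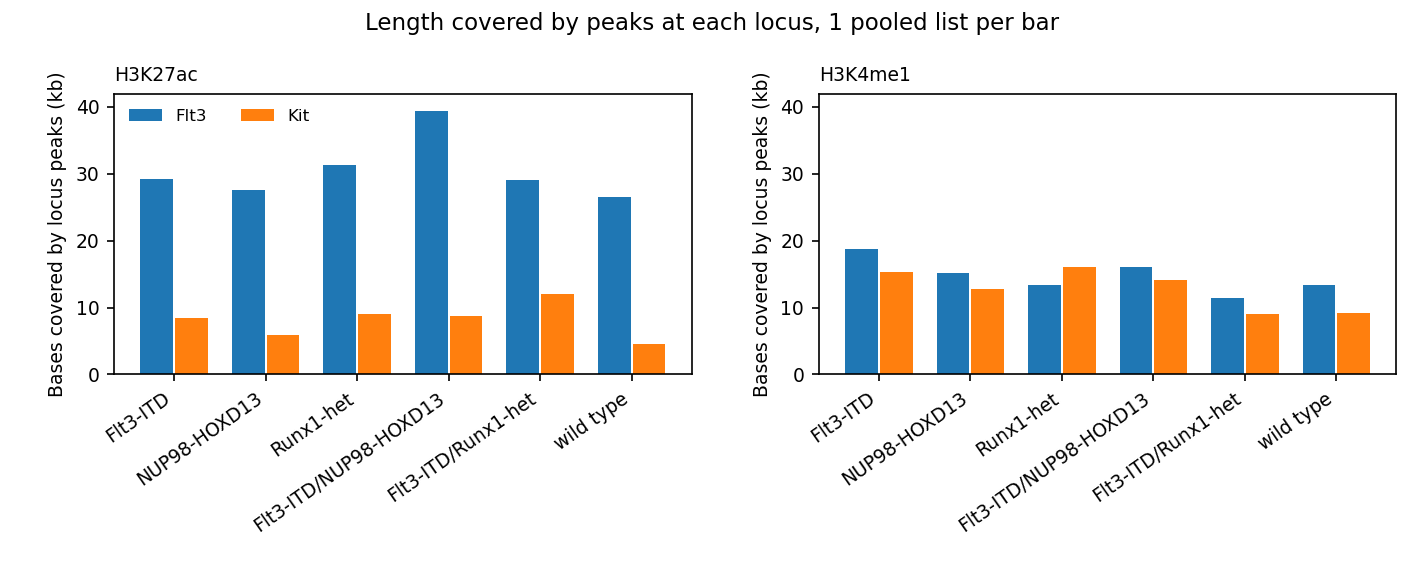
Length in kb covered by the peaks of the Flt3 locus and the Kit locus in each pooled list, H3K27ac on the left and H3K4me1 on the right, 1 list per bar without replicates. Flt3 H3K27ac stood between 26.5 and 39.4 kb and Kit H3K27ac between 4.56 and 12 kb, while the H3K4me1 lengths of the genes were nearer to each other.

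H3K4me1 at Flt3 lay largely under the same acetylated blocks. It covered 18.8 kb for Flt3-ITD, 15.1 kb for NUP98-HOXD13, 13.4 kb for Runx1-het, 16.0 kb for Flt3-ITD/NUP98-HOXD13 and 11.4 kb for Flt3-ITD/Runx1-het, against 13.4 kb in wild type. All 6 lists held 7 of the 31 regions (22.6%, against 9.97% of all H3K4me1 regions), and 1 list alone held 10 (32.3%, against 49.3%). The 7 shared regions lay in intron 1, intron 5, intron 9, over exons 7 to 9 and over exon 20. Over exon 20, at chr5:147339933-147341998, fold enrichments were 7.83, 5.73, 7.35, 6.08 and 6.60 in the Flt3-ITD, NUP98-HOXD13, Runx1-het, Flt3-ITD/NUP98-HOXD13 as well as Flt3-ITD/Runx1-het lists and 6.42 in wild type, at or above the 92.5 percentile of each list.

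At 2 places the called H3K4me1 peaks split by Flt3-ITD, and at neither did the split hold over the wider region. In intron 1, about 15 kb from the start site, the 3 Flt3-ITD lists alone held chr5:147384877-147385729 (3.23% of the Flt3 regions, against 0.855% of all), and the 3 lists without Flt3-ITD alone held chr5:147384220-147384862 (3.23%, against 0.135%). These neighbours were 14 bases apart, and when peaks up to 500 bp apart were merged they formed 1 region that all 6 lists held. At the printed promoter window, H3K4me1 peaks covered 154 of 300 bases for Flt3-ITD, 47 for Flt3-ITD/NUP98-HOXD13 and 146 for Flt3-ITD/Runx1-het, and 0 for NUP98-HOXD13, Runx1-het and wild type. Of all 27025 promoter windows, 31 (0.115%) were touched in the same pattern, a count made after the Flt3 values were seen. The wild-type list had a peak ending further upstream, at -0.8 kb, so that 4 of 6 lists had one within 1 kb of the start site. That wild-type peak had a fold enrichment of 5.59, at the 83.3 percentile. The Flt3-ITD peak on the window was weak, at 3.25 and the 13.7 percentile. No Flt3 H3K4me1 region was held by all 5 mutants alone (background 2.17%), by wild type alone (6.61%), by the 2 NUP98-HOXD13 lists alone (1.77%) or by the 2 Runx1-het lists alone (0.769%).

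In all 7 comparisons the percentage of H3K4me1 regions gained was lower at Flt3 than over all regions, with no test of that difference. Flt3-ITD gained 7 and lost 3 of 24 (background 40.5% gained and 23.7% lost), NUP98-HOXD13 gained 2 and lost 2 of 19 (39.7% and 28.4%) and Runx1-het gained 5 and lost 6 of 22 (31.9% and 33.0%). Flt3-ITD/NUP98-HOXD13 gained 4 and lost 7 of 21 against wild type (41.7% and 23.6%) and gained 5 and lost 8 of 22 against NUP98-HOXD13 (32.1% and 25.1%). The Flt3-ITD/Runx1-het list gained 1 and lost 6 of 18 against wild type (48.6% and 23.0%) and gained 4 and lost 8 of 20 against Runx1-het (48.6% and 21.8%). The H3K4me1 list of Flt3-ITD/Runx1-het was the longest of the 6, and its gained share of changed Flt3 regions was 14.3% against wild type (2.57 to 51.3), beside 67.9% over all regions.

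Kit (ENSMUSG00000005672.12, chr5:75574916-75656722, plus strand, 21 exons over 81.8 kb) had its strongest H3K27ac at its promoter and less of the mark than Flt3 in every list. Kit peaks covered 8.39 kb for Flt3-ITD, 5.94 kb for NUP98-HOXD13, 9.04 kb for Runx1-het, 8.79 kb for Flt3-ITD/NUP98-HOXD13 and 12 kb for Flt3-ITD/Runx1-het, against 4.56 kb in wild type. Each of the 5 mutant lists thus covered more than wild type, in a set of lists in which the mutants also had longer totals, 34.7 to 44.6 Mb against 28.0 Mb in wild type. Each list covered more of Kit than of 93.0% to 97.6% of protein-coding genes. Per 10000 bases covered by the list, Kit held 2.01, 1.71, 2.52, 1.97 and 3.01 bases in the mutants and 1.63 in wild type.

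**Figure D3:**
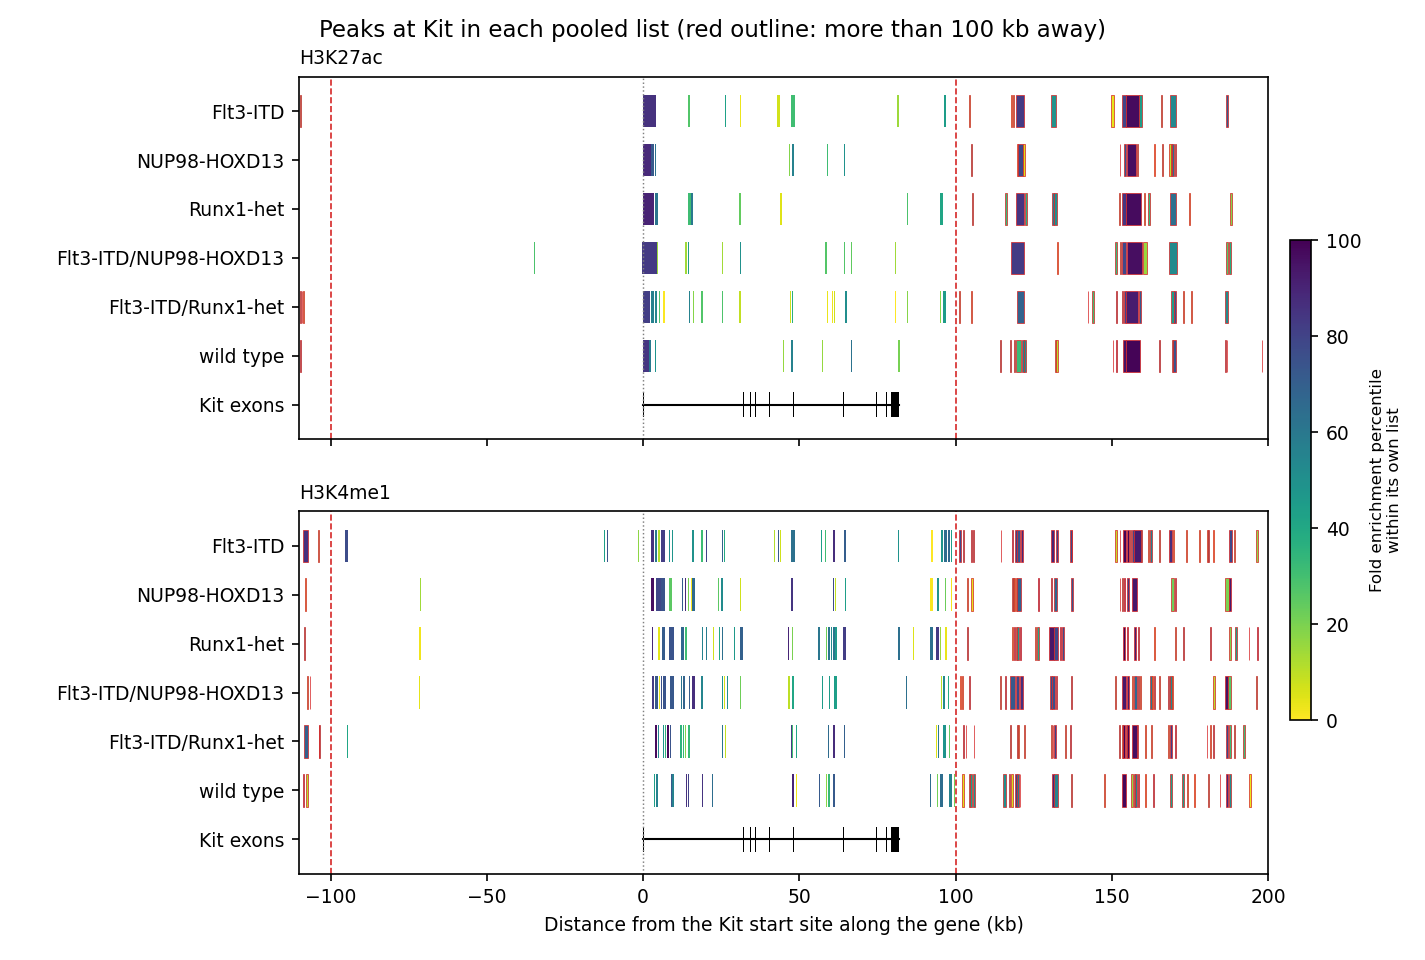
Peaks of the 6 pooled lists around Kit by distance from its start site along the gene (kb), H3K27ac above and H3K4me1 below, each bar 1 peak coloured by the percentile of its fold enrichment within its own list; dashed red lines mark 100 kb and peaks outlined in red lie beyond it. H3K27ac in all 6 lists stands at the start site and, outside the 100 kb, at 120.1, 153.8, 157.0 and 169.5 kb, while thin pale bars in between differ from list to list.

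The promoter region, chr5:75574567-75579861 over exon 1 and the start of intron 1, was the only Kit H3K27ac region in all 6 lists (1 of 29, 3.45%, against 19.3% of all regions). Its highest fold enrichment was 10.6 for Flt3-ITD, 10.8 for NUP98-HOXD13, 13.4 for Runx1-het, 10.7 for Flt3-ITD/NUP98-HOXD13 and 8.16 for Flt3-ITD/Runx1-het, and 7.64 in wild type. It was the strongest Kit peak in each list and stood between the 82.0 and 90.4 percentile, below the Flt3 promoter in every list. Peaks covered 4137, 3862, 4756, 5166 and 3846 bp of the region in the mutant lists, against 2747 bp in wild type. Of the printed 300-base window, H3K27ac peaks covered 65 bases for Flt3-ITD, 75 for NUP98-HOXD13, 224 for Runx1-het, all 300 for Flt3-ITD/NUP98-HOXD13 and 108 for Flt3-ITD/Runx1-het, against 8 in wild type. The strongest summits lay 0.2 to 1.6 kb inside the gene, so the mark lay mostly downstream of the start site.

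The remaining Kit regions were small peaks that few lists shared. A single list held 15 of 29 (51.7%, against 52.6%). In intron 1, chr5:75589309-75590166 and chr5:75605675-75606382 were each held by the same 4 mutant lists, Flt3-ITD, Runx1-het, Flt3-ITD/NUP98-HOXD13 as well as Flt3-ITD/Runx1-het, and by neither NUP98-HOXD13 nor wild type. Fold enrichments there were 3.58, 4.15, 4.25 and 4.61 at the first and 2.68, 3.93, 4.54 and 3.05 at the second, in that order of lists. Percentiles ran from 27.1 to 56.0 at the first and from 2.75 to 49.8 at the second. These 2 regions were picked out after their values were seen, and the share of all regions with this pattern was not counted. The 2 Runx1-het lists alone held 2 Kit regions (6.90%, against 0.573% of all regions), chr5:75590405-75591350 in intron 1 and chr5:75659440-75659815 just downstream of the gene, with fold enrichments of 3.35 to 5.61. Both share the sex difference of these lists, whose part in the result was not tested. In both, the Flt3-ITD/Runx1-het peak was weak, with a fold enrichment of 3.35 at the 18.3 percentile. With peaks merged up to 500 bp apart, the region in intron 1 would join chr5:75589309-75590166, which Flt3-ITD and Flt3-ITD/NUP98-HOXD13 also held. It would then lose this pattern. Wild type alone held 3 (10.3%, against 14.0%), all with a fold enrichment of 3.35, and no Kit region was held by all 5 mutants alone (background 1.58%), by the 3 Flt3-ITD lists alone (0.702%) or by the 2 NUP98-HOXD13 lists alone (1.39%).

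Against wild type, Flt3-ITD/Runx1-het had the largest number of added Kit regions. Lists held 8, 6, 7, 10 and 17 of 29 regions in Flt3-ITD, NUP98-HOXD13, Runx1-het, Flt3-ITD/NUP98-HOXD13 as well as Flt3-ITD/Runx1-het, against 7 in wild type. Flt3-ITD/Runx1-het gained 15 and lost 5 of 22 (68.2% and 22.7%, beside 33.1% and 28.5% over all regions), and against Runx1-het it gained 11 and lost 1 of 18 (61.1% and 5.56%, beside 37.6% and 20.5%). The gained share of changed regions was 75.0% (53.1 to 88.8) in the first, beside 53.7%, and 91.7% (64.6 to 98.5) in the second, beside 64.7%. This rested on weak peaks, at a median percentile of 18.3 and 8.61 in the Flt3-ITD/Runx1-het list. With lists of equal length the second comparison gave 3 gained of 7 changed regions, 42.9%, and with peaks of −log10 q of at least 5 it gave 0 of 3.

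Among the other comparisons at Kit, Flt3-ITD gained 5 and lost 4 of 12 regions (background 27.6% and 30.4%), and NUP98-HOXD13 gained 4 and lost 5 of 11 (24.4% and 34.5%). Runx1-het gained 6 and lost 6 of 13 (23.7% and 36.0%). The Flt3-ITD/NUP98-HOXD13 list gained 8 and lost 5 of 15 against wild type (26.9% and 31.7%) and gained 8 and lost 4 of 14 against NUP98-HOXD13 (24.8% and 18.9%). The gained share ran from 44.4% to 66.7% in these. In all 7 Kit H3K27ac comparisons, those of Flt3-ITD/Runx1-het included, the interval held the share over all regions. The plot of gained shares shows these intervals beside the values over all regions.

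**Figure D4:**
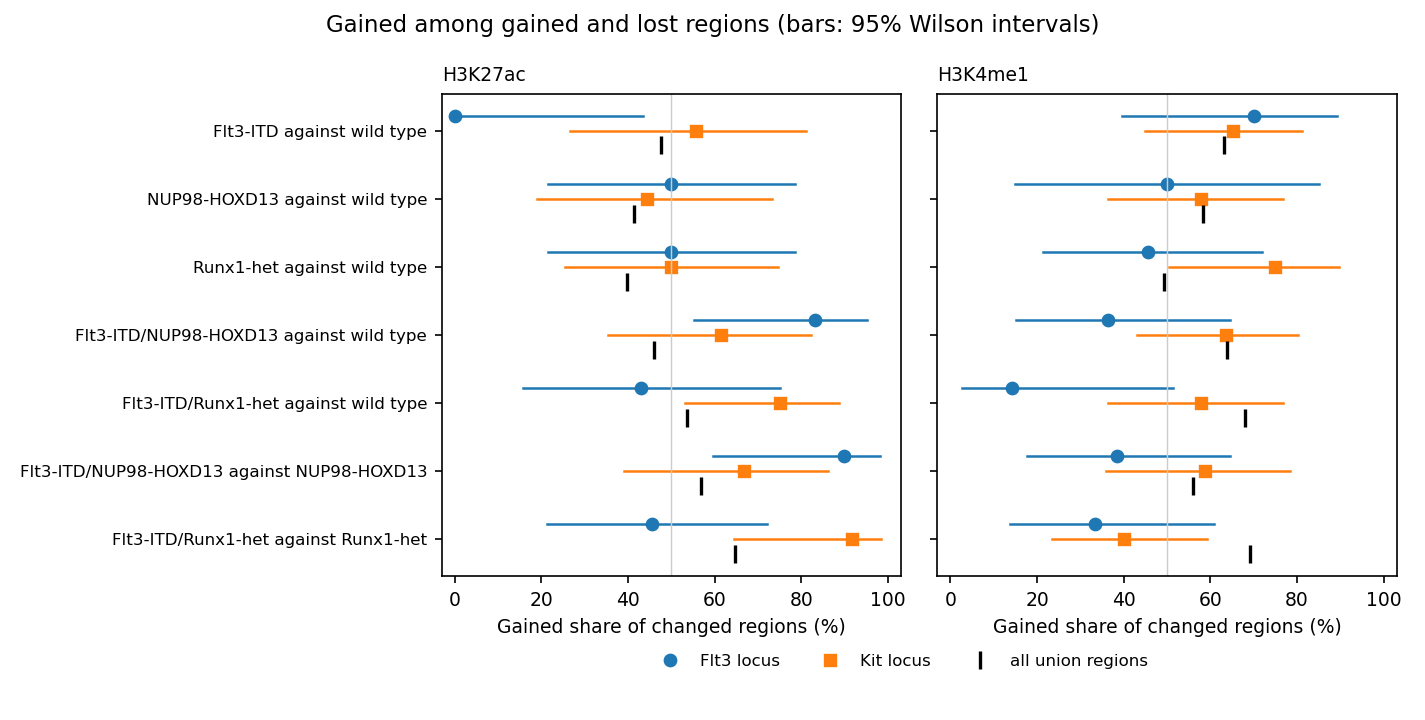
Gained regions as a percentage of gained plus lost regions in 7 comparisons, H3K27ac on the left and H3K4me1 on the right, for the Flt3 locus (circles), the Kit locus (squares) and all union regions (black ticks); horizontal bars are 95% Wilson intervals for counting error. For H3K27ac the highest values are Flt3 for Flt3-ITD/NUP98-HOXD13 against NUP98-HOXD13 at 90.0% and Kit in Flt3-ITD/Runx1-het against Runx1-het at 91.7%.

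Beyond the 100 kb limit, 1 region was more strongly acetylated than the Kit promoter in every list. With the reach set to 200 kb, 29 further H3K27ac regions had Kit as their nearest protein-coding start site, since Pdgfra and Kdr start 413 and 404 kb away. This strongest region, chr5:75729381-75734495 over the lincRNA gene Gm43101, lay 157.0 kb downstream of the Kit start site and was held by all 6 lists, with fold enrichments of 23.4 for Flt3-ITD, 18.4 for NUP98-HOXD13, 23.0 for Runx1-het, 23.7 for Flt3-ITD/NUP98-HOXD13 and 13.5 for Flt3-ITD/Runx1-het, and 22.1 in wild type. These stood at the 92.2 to 99.0 percentile, above the Kit promoter in every list, with summits within 426 bp of each other. Another, at chr5:75692468-75697681 (120.1 kb), had 9.24, 7.38, 10.3, 10.4 and 5.66 in the mutants and 4.67 in wild type, each below the Kit promoter of its list. A region at chr5:75728085-75729377 (153.8 kb) was also held by all 6 lists. It was above the Kit promoter in wild type, at 13.2, and below it in each mutant list. Just inside the limit, the nearest H3K27ac region was at 95.9 kb, with fold enrichments of 4.21 for Flt3-ITD, 4.55 for Runx1-het and 4.19 for Flt3-ITD/Runx1-het. Which gene these regions act on was not measured.

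H3K4me1 covered more of Kit than H3K27ac did in 5 of 6 lists, the exception being Flt3-ITD/Runx1-het. It covered 15.3 kb for Flt3-ITD, 12.7 kb for NUP98-HOXD13, 16.1 kb for Runx1-het, 14.1 kb for Flt3-ITD/NUP98-HOXD13 and 9.03 kb for Flt3-ITD/Runx1-het, against 9.25 kb in wild type. All 6 lists held 6 of 51 regions (11.8%, against 9.97%), of which 3 lay in intron 1 between 4.7 and 13.1 kb from the start site, 1 over exon 7, 1 in intron 7 and 1 at 96.0 kb, downstream of the gene. The region in intron 7, chr5:75635794-75636418, had summits within 118 bp of each other and fold enrichments of 5.69, 4.76, 4.72, 3.87 and 5.87 in the mutants and 5.04 in wild type. No list had an H3K4me1 peak within 1 kb of a Kit start site.

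Intron 1 of Kit held both regions that all 5 mutant lists carried and wild type lacked (2 of 51, 3.92%, against 2.17% of all H3K4me1 regions). At chr5:75580582-75582344, 6.5 kb from the start site, fold enrichments were 5.30 for Flt3-ITD, 4.68 for NUP98-HOXD13, 5.17 for Runx1-het, 4.72 for Flt3-ITD/NUP98-HOXD13 and 4.32 for Flt3-ITD/Runx1-het, with no wild-type peak. At chr5:75599909-75600518, 25.3 kb in, they were 4.71, 4.04, 4.82, 3.95 and 4.66 in the same order, with summits within 192 bp of each other. The first region followed chr5:75578710-75580530, which all 6 lists held, wild type at a fold enrichment of 4.48. The second followed chr5:75599291-75599621, which wild type held at 4.21. With peaks merged up to 500 bp apart, each would join that neighbour, and wild type would hold it too. The 3 Flt3-ITD lists alone held 3 regions (5.88%, against 0.855%), at -95 kb, in intron 1 at 26.2 kb and in intron 7 at 57.2 kb, with fold enrichments of 2.86 to 5.05. Their percentiles ran from 6.52 to 76.6, and their highest −log10 q was 4.86. At the same merging distance of 500 bp, the region at 26.2 kb would join chr5:75599909-75600518, which all 5 mutant lists held. The region at 57.2 kb would join chr5:75630815-75631476, which Runx1-het and wild type held. Both would then lose the pattern. Wild type alone held 1 (1.96%, against 6.61%), 1 list alone held 20 (39.2%, against 49.3%), and none were held by the 2 NUP98-HOXD13 lists alone (1.77%) or the 2 Runx1-het lists alone (0.769%).

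In the lists as deposited, gained Kit H3K4me1 regions outnumbered lost ones in every mutant set against wild type, as they did over all regions except in Runx1-het. Flt3-ITD gained 15 and lost 8 of 34, 44.1% and 23.5%, near the background of 40.5% and 23.7%. NUP98-HOXD13 gained 11 and lost 8 of 30 (background 39.7% and 28.4%), and Runx1-het gained 12 and lost 4 of 31 (31.9% and 33.0%). The Flt3-ITD/NUP98-HOXD13 list gained 14 and lost 8 of 33 against wild type (41.7% and 23.6%) and gained 10 and lost 7 of 32 against NUP98-HOXD13 (32.1% and 25.1%). The Flt3-ITD/Runx1-het list gained 11 and lost 8 of 30 against wild type (48.6% and 23.0%), but gained 10 and lost 15 of 37 against Runx1-het (48.6% and 21.8%). The direction against wild type turned with lists of equal length, to gained shares of 28.6% for NUP98-HOXD13 and 35.7% for Flt3-ITD/Runx1-het. At −log10 q of at least 5 it turned to 45.5% for Flt3-ITD, 12.5% for NUP98-HOXD13, 30.0% for Flt3-ITD/NUP98-HOXD13 and 33.3% for Flt3-ITD/Runx1-het, and not for Runx1-het at 57.1%. Flt3-ITD/Runx1-het also turned, to 38.5%, where peaks had to cover at least 0.5 of a region, and NUP98-HOXD13 to 43.6% with a reach of 200 kb. The gained share of 40.0% (23.4 to 59.3) for Flt3-ITD/Runx1-het against Runx1-het stood below the 69.1% of all regions.

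Flt3 and Kit differed in the share of H3K4me1 peaks that were also acetylated. At Flt3, 21 of 27 H3K4me1 peaks overlapped an H3K27ac peak in Flt3-ITD, 22 of 27 for NUP98-HOXD13, 19 of 22 for Runx1-het, 22 of 22 for Flt3-ITD/NUP98-HOXD13 and 20 of 23 for Flt3-ITD/Runx1-het, and 22 of 25 in wild type. At Kit the counts were 7 of 31, 6 of 27, 3 of 29, 5 of 29 and 13 of 29 in the same mutants and 3 of 20 in wild type. Over all H3K4me1 peaks of the list the share was 31.9% for Flt3-ITD, 29.9% for NUP98-HOXD13, 29.9% for Runx1-het, 32.8% for Flt3-ITD/NUP98-HOXD13 and 29.6% for Flt3-ITD/Runx1-het, and 26.1% in wild type. Flt3 shares ran from 77.8% to 100% and Kit shares from 10.3% to 44.8%, and the intervals of the genes did not overlap in any list. Peaks of 1 locus are not independent, so these intervals are too narrow, and the genes were not tested against each other. Kit in Flt3-ITD/Runx1-het had 44.8% (28.4 to 62.5), against 15.0% in wild type (5.24 to 36.0), intervals that overlap. The genes did not separate in the reverse share, that of H3K27ac peaks overlapping an H3K4me1 peak. It ran from 42.1% to 91.7% at Flt3 and from 33.3% to 75.0% at Kit, with overlapping intervals in every list.

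**Figure D5:**
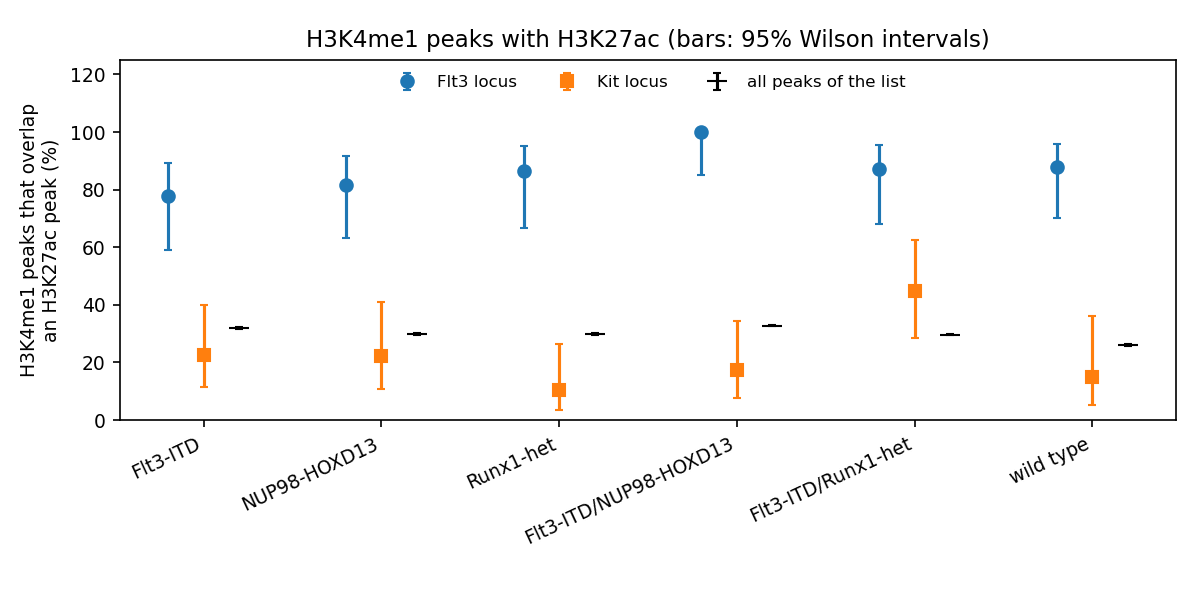
Percentage of H3K4me1 peaks that overlap an H3K27ac peak by at least 1 bp in the pooled lists of each genotype, for the Flt3 locus (circles), the Kit locus (squares) and all peaks of the list (dashes); bars are 95% Wilson intervals for counting error. Flt3 lies above 77% in every genotype, and Kit lies below the value of all peaks except in Flt3-ITD/Runx1-het.

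Genes of the same pathway were described by an H3K27ac peak within 1 kb of a start site, a peak present at 43.5% of 21866 genes for Flt3-ITD, 45.6% for NUP98-HOXD13, 39.9% for Runx1-het, 45.9% for Flt3-ITD/NUP98-HOXD13, 46.6% for Flt3-ITD/Runx1-het and 40.0% in wild type. Flt3 and Kit had one in all 6 lists. Of the 3 other class III receptors, Csf1r, the macrophage colony-stimulating factor receptor, and Pdgfra had none in any list, and Pdgfrb had one in 4 mutant lists, at the 18.6 to 68.8 percentile, with fold enrichments of 3.36 for Flt3-ITD, 4.63 for NUP98-HOXD13, 4.70 for Flt3-ITD/NUP98-HOXD13 and 5.66 for Flt3-ITD/Runx1-het. In wild type none of the 3 had a peak within 1 kb, but their share rose with a promoter distance of 2 kb, as given at the end.

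The ligands were mostly without the mark. Kitl, which encodes stem cell factor, had no promoter peak in any list. Flt3l, which encodes FLT3 ligand, had one in all 5 mutant lists, at 3.23 for Flt3-ITD, 3.80 for NUP98-HOXD13, 4.24 for Runx1-het, 4.72 for Flt3-ITD/NUP98-HOXD13 and 7.44 for Flt3-ITD/Runx1-het, and none in wild type. These Flt3l peaks stood at the 15.6, 38.9, 32.0, 53.4 and 79.4 percentile of their lists. The share of all genes with this pattern was not counted. In total 2, 2, 1, 2 and 1 of the 6 ligand genes had a promoter peak in the mutant lists, against 0 in wild type. Csf1, which encodes macrophage colony-stimulating factor, was the second ligand gene where there were 2.

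Downstream of the receptors, most promoters were marked whatever the genotype. Among 25 adaptors and effectors, 22 for Flt3-ITD, 24 for NUP98-HOXD13, 23 for Runx1-het, 24 for Flt3-ITD/NUP98-HOXD13 and 23 for Flt3-ITD/Runx1-het had a peak, against 22 in wild type. Stat5a and Stat5b, transcription factors activated by both receptors, had one in all 6 lists, and Src had none in any. The counts differed through Gab1, Sos1 and Mapk3, which each lacked a peak in some lists. Among 15 negative regulators, 14, 14, 13, 14 and 15 had one in the mutant lists, against 13 in wild type. Socs2, a STAT5-induced inhibitor of cytokine signalling, had no peak in Runx1-het or wild type, a pattern whose share of all genes was not counted. In the other lists its peak stood at 15.4 for Flt3-ITD, 3.75 for NUP98-HOXD13, 12 for Flt3-ITD/NUP98-HOXD13 and 17.8 for Flt3-ITD/Runx1-het. Socs3, another inhibitor of this family, had one in Flt3-ITD/Runx1-het and in no other list. Of 15 transcription factors known to act on Flt3 or Kit, 11, 11, 11, 12 and 10 had one in the mutant lists and 12 in wild type, with none in any list at Cebpa, Gata1 and Pax5. Gata2 had one in the 2 NUP98-HOXD13 lists and wild type, and Mitf lacked one in the NUP98-HOXD13 list and the Flt3-ITD/Runx1-het list. Hoxa9 and Meis1, regulators of Flt3, had one in all 6 lists.

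The genes whose share of covered bases varied over the 12 lists most like that of Flt3, among 7155 genes covered in all lists, were Vti1b (Pearson r = 0.93), Antxr2 (0.88) and Urad (0.87), the last being a neighbour of Flt3 that starts 78.0 kb away and shares regions with it. Those most like Kit were Atp5j (0.86), Nfatc3 (0.86) and Rhoh (0.85). Flt3 and Kit themselves had r = 0.17. These values describe 12 pooled lists that share depth and peak calling and are the highest of many genes.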

How the data were processed

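H3K27ac and H3K4me1 were measured by ChIPmentation in 39 samples of 6 genotypes. Alignment by BWA to mm10 (GRCm38) and peak calling by MACS2 are named in the submitters' processing notes. Versions, settings, read depth and any filter before deposit are not stated there. Per the labels, the samples of a genotype and mark share 1 list, so no value per sample exists. The deposited lists give for each peak a score, the fold enrichment over control, −log10 p, −log10 q and the summit position, all computed by the authors' peak caller. A fold enrichment was used within its own list only, as a value or percentile.

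Peaks were assigned with GENCODE release 21 (54340 start sites of 21866 protein-coding genes), and the peaks of the 6 lists of a mark were merged where they overlapped by at least 1 bp. A list held a region if one of its peaks overlapped it. Shares carry 95% Wilson intervals, which cover counting error only. No genotype was tested, and no p-value was computed, since each list stands alone. The counting of regions was checked on an altered copy of the wild-type H3K27ac list, in which all planted gains and losses were recovered. Planted gains touched no wild-type peak, so correct counting had to recover them. Differences in depth, peak width or threshold between lists were not simulated, so this gives no support to the gained and lost counts themselves.

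Genes were named by rule: Flt3 and Kit in every list, gene lists by counts with members named where 5 or fewer, neighbours, and the 3 genes most alike to each. Likeness was Pearson r, over 12 lists, of the log2 share of covered bases after the mean of each mark was subtracted. The loci and gene lists were chosen with earlier results of these data known. Alternatives varied list length, q threshold, overlap, merging, reach, promoter distance and peak strength. The start sites of every transcript and the count of H3K4me1 promoter windows were added after seeing the data. The planned search for motifs in regions was replaced by the promoter windows. Python 3.11.15, pandas 2.3.3, numpy 2.4.6, scipy 1.17.1 and matplotlib 3.10.9 were used.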

Additional observations from a re-analysis of the deposited data

How the results depend on the processing

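No paired analysis was possible because each list pools the samples of its group and holds no value per sample; for the same reason no replicate could be left out. With the gene body alone, a reach of 50 or 200 kb or the start sites of every transcript (added after seeing the data), no share of held regions and no gained share moved beyond its interval; overlap shares were not run there. A promoter distance of 2 kb left the promoter peaks of Flt3 and Kit as they were and moved 2 of 48 gene list shares, to 66.7% for class III receptors in wild type and 100% for stem and progenitor markers in Flt3-ITD. The causes of the moves below were not tested.

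Keeping only peaks of −log10 q of at least 5 moved 37 values of the loci, on few regions, and 9 of 48 gene list shares, all downwards. The gained share of changed Flt3 H3K27ac regions became 75.0% for Flt3-ITD and 85.7% for Runx1-het against wild type, 100% against NUP98-HOXD13 for Flt3-ITD/NUP98-HOXD13 and 0% against Runx1-het for Flt3-ITD/Runx1-het. For Flt3 H3K4me1 it became 28.6% for Flt3-ITD, 0% for NUP98-HOXD13, 12.5% for Flt3-ITD/NUP98-HOXD13 and 0% for Flt3-ITD/Runx1-het against wild type, 100% against NUP98-HOXD13 and 0% against Runx1-het. For Kit H3K27ac it became 100% for Flt3-ITD, Runx1-het and both combined genotypes against wild type, 100% against NUP98-HOXD13 and 0% against Runx1-het. For Kit H3K4me1 it became 12.5% for NUP98-HOXD13, 30.0% for Flt3-ITD/NUP98-HOXD13 and 33.3% for Flt3-ITD/Runx1-het against wild type, and 100% against NUP98-HOXD13. Held Flt3 H3K27ac regions became 46.7% for Flt3-ITD and 66.7% for Runx1-het, and held Flt3 H3K4me1 regions 50% for Flt3-ITD, 11.1% for NUP98-HOXD13 and 72.2% for Runx1-het. Held Kit H3K27ac regions became 71.4% for Runx1-het and 28.6% for Flt3-ITD/Runx1-het, and held Kit H3K4me1 regions 28.6% for Flt3-ITD, 4.76% for NUP98-HOXD13, 14.3% for Flt3-ITD/NUP98-HOXD13 and 19.0% for Flt3-ITD/Runx1-het. H3K4me1 peaks with H3K27ac became 100% at Flt3 for Flt3-ITD, NUP98-HOXD13 as well as Flt3-ITD/Runx1-het, and at Kit 100% for NUP98-HOXD13, 0% for Flt3-ITD/Runx1-het and 0% for wild type.

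Limiting changes to peaks at or above the median fold enrichment moved 13 gained shares. At Flt3, H3K27ac became 100% against NUP98-HOXD13 for Flt3-ITD/NUP98-HOXD13 and 50% for it against wild type, 0% for Flt3-ITD/Runx1-het in both its comparisons and 0% for NUP98-HOXD13, and H3K4me1 became 16.7% against NUP98-HOXD13 for Flt3-ITD/NUP98-HOXD13 and 0% for it against wild type. At Kit, H3K27ac became 0% for Flt3-ITD and NUP98-HOXD13 against wild type, 0% for Flt3-ITD/NUP98-HOXD13 in both its comparisons and 100%, against Runx1-het, for Flt3-ITD/Runx1-het, and H3K4me1 became 20% in that last comparison.

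Lists of equal length, 31978 and 72682 peaks, moved 12 values. Gained shares became 50% for Flt3 H3K27ac in Flt3-ITD, 0% for Flt3 H3K4me1 in Flt3-ITD/NUP98-HOXD13, and for Kit H3K27ac 75.0% for NUP98-HOXD13, 75.0% for Runx1-het and 88.9% for Flt3-ITD/NUP98-HOXD13, all against wild type, then 42.9%, against Runx1-het, for Flt3-ITD/Runx1-het. Kit H3K4me1 became 28.6% for NUP98-HOXD13 and 35.7% for Flt3-ITD/Runx1-het against wild type, 84.6% against NUP98-HOXD13 and 15.8% against Runx1-het. Held Kit regions became 31.6% for H3K27ac in Flt3-ITD/Runx1-het and 28.6% for H3K4me1 in NUP98-HOXD13.

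Asking peaks to cover at least 0.5 of a region moved held shares to 25.9% for Flt3 H3K27ac in NUP98-HOXD13. Flt3 H3K4me1 became 32.3% for NUP98-HOXD13, 29.0% for Runx1-het, 19.4% for Flt3-ITD/Runx1-het and 35.5% for wild type, and Kit H3K4me1 25.5% for NUP98-HOXD13, 15.7% for Flt3-ITD/Runx1-het and 21.6% for wild type. The Kit H3K4me1 gained share became 20.8%, against Runx1-het, for Flt3-ITD/Runx1-het. Asking H3K27ac to cover at least 0.5 of an H3K4me1 peak left 0% at Kit in wild type. Merging peaks up to 500 bp apart moved the Flt3 H3K27ac gained share to 100% for Runx1-het against wild type and also, set against NUP98-HOXD13, for Flt3-ITD/NUP98-HOXD13. Flt3 H3K4me1 became 66.7% in the second of these and 0% for NUP98-HOXD13 as well as Flt3-ITD/Runx1-het against wild type, and Kit H3K4me1 81.8% for Flt3-ITD. Held H3K4me1 regions became 68.8% at Flt3 in Flt3-ITD/NUP98-HOXD13 and 70.4% at Kit in Flt3-ITD.

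Read depth is unknown, and the lists differ in length, peak width and share of peaks at a strict q. A region absent from a list was not called there, which does not show that the mark was absent. Regions held by few lists were mostly weak peaks.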
